A study of Mus musculus with 8 samples.

Results

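The 10 genes described here encode components and regulators of complement: C1ra, C1s1, C2, C3, C4b, Cfb, Serping1, Masp1, Cd55 and Cd59a. They were taken by name from 45556 named genes in the count table of an RNA sequencing study of B16F10, a mouse melanoma line that grows in C57BL/6 mice. One line carried a hairpin against Drg2 (shDRG2) and the other is labelled pLKO, the name of a vector for such hairpins. Cells of both were treated for 24 hours with 5 ng/ml of mouse IFN-γ (interferon-gamma), or not treated. The 4 groups were shDRG2 with IFN-γ, pLKO with IFN-γ, shDRG2 and pLKO, with 2 libraries in each and 8 in all. The labels name 1 line of each kind and 1 hairpin, and do not say what insert pLKO held, so effects of Drg2 loss and other differences between these lines cannot be told apart.

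Complement is a cascade of plasma and membrane proteins that marks targets for uptake and can perforate membranes. In the classical pathway, C1q binds a target and the attached proteases C1r and C1s become active. C1s then cleaves C4 and C2, whose fragments form the enzyme that cleaves C3. Factor B, encoded by Cfb, takes the place of C2 in the alternative pathway, and MASP proteases take the place of C1r and C1s in the lectin pathway. C1 inhibitor, encoded by Serping1, blocks C1r, C1s and MASP proteases. CD55 speeds the decay of the enzymes that cleave C3, and CD59 blocks the membrane attack complex. Liver is the main source of plasma complement, while many other cell types make single components, and IFN-γ is a known inducer of several of them.

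Column totals ran from 25422758 to 36654519 estimated counts. Levels are given as CPM, counts per 1000000 of the library size scaled by TMM (trimmed mean of M-values). Levels between genes are compared as CPM per kb of exon, with all annotated exons of a gene merged. Fold changes and standard errors (SE) are on the log2 scale from edgeR's quasi-likelihood fit, n is 2 libraries per group, and a gene was called at a Benjamini-Hochberg adjusted p under 0.05 over the 13500 genes tested. Drg2 was at 6.46 and 7.66 CPM in shDRG2 with IFN-γ and at 72.3 and 64.3 CPM in pLKO with IFN-γ. Without IFN-γ, Drg2 stood at 8.68 and 9.34 CPM in shDRG2 and 76.3 and 68.6 CPM in pLKO, so it was lower in every shDRG2 library. All 7 melanocyte markers were detected. Alb and Serpina1a of hepatocytes, Adgre1 and Itgam of macrophages, and Cdh5 and Kdr of endothelium had no count in any library. Other markers of these cells and all 5 fibroblast markers had counts, with sums of at most 19.5 CPM in a library for fibroblast markers and 5.97 CPM for endothelial ones. The labels do not say that replicates were separate cultures, so a p-value measures only how these libraries spread, which may be technical. In bulk samples, fewer cells expressing a gene and less RNA per cell cannot be told apart.

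The RefSeq table of promoters used here (GRCm38.p6, 250 bases before to 50 after each start site) held C1ra, C1s1, C3, Cd55 and Cd59a, 5 of the 10 genes. The windows of C1ra and C1s1 are shown because both genes rose with IFN-γ, and that of Cd59a because it was not called. Capitals mark matches to 3 motifs searched on both strands. These were TTCNNNGAA, a form of the gamma-activated sequence, the core of the interferon-stimulated response element (ISRE), read as GAAA, any 2 bases and GAAA, and a longer form, that core followed by CT.
C1ra, chr6:124512371-124512670, plus strand: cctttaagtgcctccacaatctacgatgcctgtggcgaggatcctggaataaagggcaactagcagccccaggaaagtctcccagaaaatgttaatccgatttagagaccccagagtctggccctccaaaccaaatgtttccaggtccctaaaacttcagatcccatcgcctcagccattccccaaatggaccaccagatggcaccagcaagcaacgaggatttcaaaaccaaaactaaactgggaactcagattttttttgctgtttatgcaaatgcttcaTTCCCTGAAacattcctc
C1s1, chr6:124542310-124542609, minus strand, the first of its listed start sites: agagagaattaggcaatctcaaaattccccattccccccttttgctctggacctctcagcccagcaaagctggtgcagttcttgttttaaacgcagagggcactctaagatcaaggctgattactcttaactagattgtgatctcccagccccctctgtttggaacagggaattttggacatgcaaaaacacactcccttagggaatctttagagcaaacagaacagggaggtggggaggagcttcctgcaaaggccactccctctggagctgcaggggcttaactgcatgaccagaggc
Cd59a, chr2:104095551-104095850, plus strand: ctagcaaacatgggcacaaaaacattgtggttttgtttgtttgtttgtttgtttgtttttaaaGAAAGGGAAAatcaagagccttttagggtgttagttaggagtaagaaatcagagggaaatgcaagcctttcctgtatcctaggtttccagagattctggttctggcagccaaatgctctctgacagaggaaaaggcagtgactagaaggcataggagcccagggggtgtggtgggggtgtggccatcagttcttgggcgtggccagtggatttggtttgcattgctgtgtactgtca
C1ra had 1 match to TTCNNNGAA, TTCCCTGAA, starting at base 33 counted from the start site, and no ISRE core. C1s1, which rose in both lines, had no match in either of its windows. Cd59a had 1 ISRE core, GAAAGGGAAA, starting at position -187 on the same count. Of all 32851 windows in the table, 8.30% held TTCNNNGAA, 3.44% the ISRE core and 0.271% the longer form. The windows of C3 and Cd55 held none of the motifs. RefSeq start sites can differ from the GENCODE gene bounds given for each gene here, and that of C1ra lies inside the GENCODE gene.

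In both lines IFN-γ raised 6 of the 8 genes tested and lowered 1, Masp1. C3, too low to be tested, had counts only in libraries with IFN-γ. The largest rises were in C4b, at 186 to 213 CPM in libraries with IFN-γ and at most 0.218 CPM without, and in Serping1, which had no count in any library without IFN-γ. C1ra rose 16.6-fold in shDRG2 cells and 15.7-fold in pLKO cells. Filtering on low counts left 8 of the 10 genes for testing, with C3 and Cd55 left out. In shDRG2 cells 6 were higher and 1 lower, where 31.4% of all tested genes were called, 16.2% higher and 15.2% lower. In pLKO cells 6 were higher and 1 lower, where 28.1% of all tested genes were called, 15.4% higher and 12.7% lower. The median log2 fold change of the 8 was 2.66 in shDRG2 and 2.47 in pLKO cells, beside 0.00 and 0.01 over all genes tested, and these medians were the same with Serping1 at its lower bound. C4b and Serping1 passed the filter only through their IFN-γ libraries, so they had to differ, and these medians do not describe all 10 genes.

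**Figure D1:**
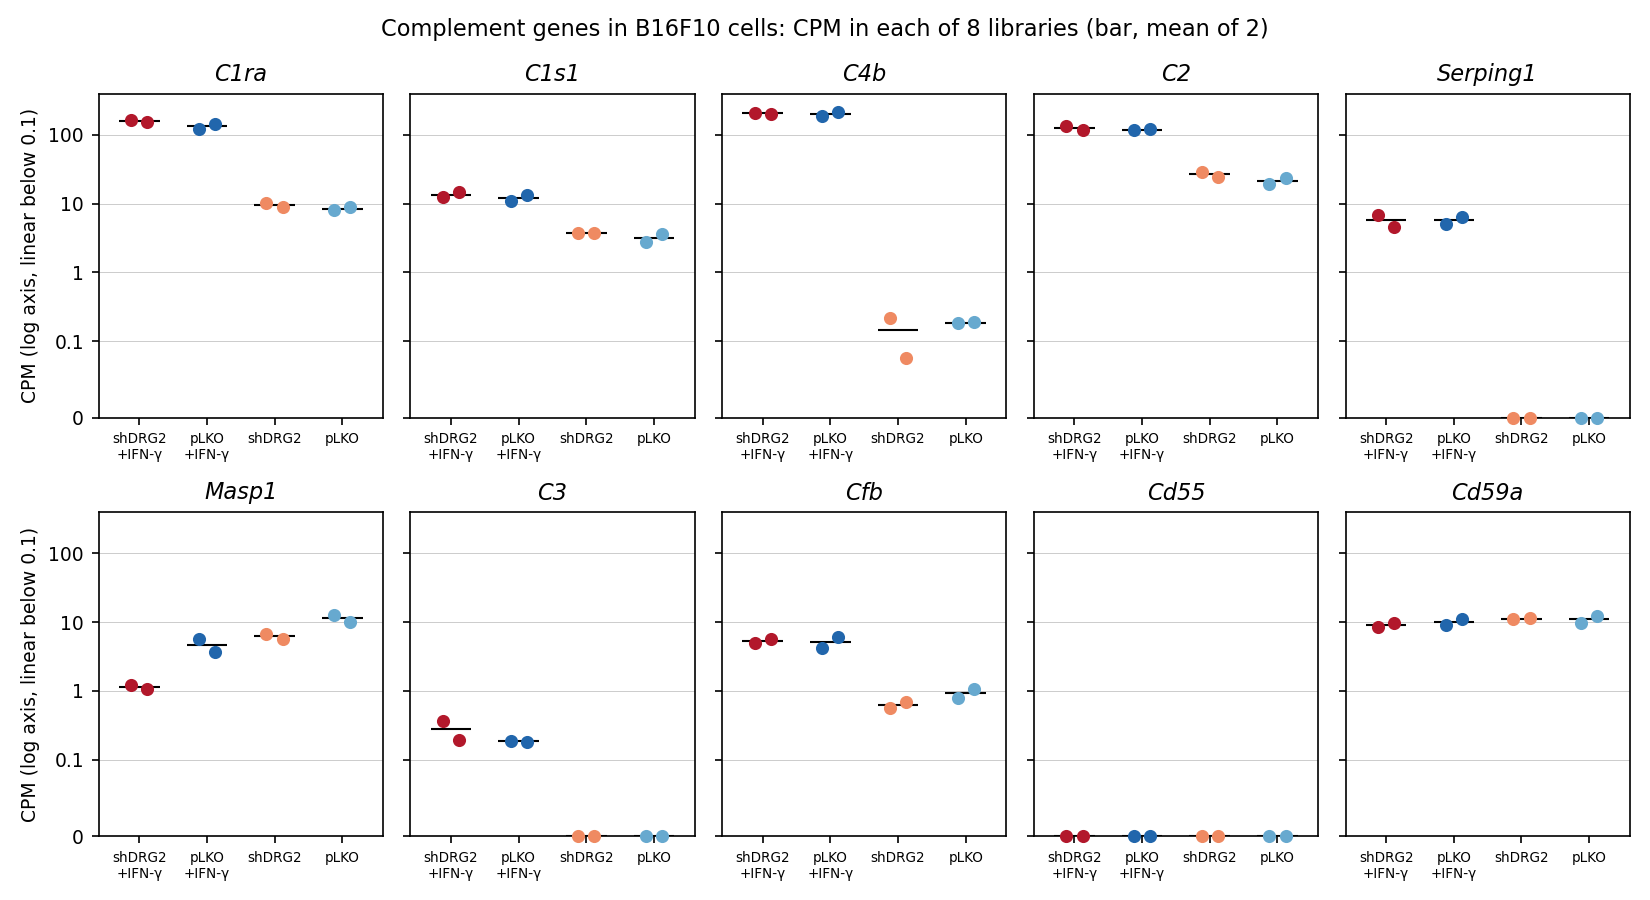
CPM of the 10 complement genes in each library, on a log axis that is linear below 0.1, with a point per library and a bar at the mean of 2. C4b, C1ra, C2, C1s1, Cfb and Serping1 sit higher in the 4 IFN-γ libraries than in the 4 without, Masp1 sits lowest in shDRG2 with IFN-γ, and Cd55 is at 0 throughout.

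C1ra (ENSMUSG00000055172.10, chromosome 6, 124512405 to 124523443, plus strand, GRCm38 as for all positions) encodes the protease C1r. Its level was 162 and 153 CPM in shDRG2 with IFN-γ and 10.1 and 8.84 CPM in shDRG2 cells. The pLKO libraries had 123 and 143 CPM with IFN-γ and 8.07 and 8.85 CPM without. The libraries with and without IFN-γ were far apart in both lines, at a log2 fold change of 4.05 in shDRG2 (SE 0.112, edgeR adjusted p = 1.39e-09) and 3.97 in pLKO cells (SE 0.112, edgeR adjusted p = 1.65e-09). C1s1 (ENSMUSG00000038521.17, chromosome 6, 124530345 to 124542359, minus strand) encodes C1s, the protease that C1r activates. Its level was 12.3 and 14.85 CPM in shDRG2 with IFN-γ and 3.70 and 3.68 CPM in shDRG2 cells. The pLKO libraries had 10.8 and 13.55 CPM with IFN-γ and 2.75 and 3.597 CPM without. Its groups did not overlap either, and its rise was smaller, at 1.88 in shDRG2 (SE 0.180, edgeR adjusted p = 2.35e-05) and 1.94 in pLKO cells (SE 0.182, edgeR adjusted p = 2.35e-05). Both genes have near copies beside them. Of the 31-base words of C1ra's longest transcript 56.9% occur in C1rb, and of those of C1s1 36.5% occur in C1s2. The authors' counting gave C1rb at most 5.975 counts in a library and C1s2 at most 3.028. The split between copies is uncertain. The antisense gene Gm16567 covers 18.4% of the exon bases of C1s1, and no source used here gives the strandedness of the counting.

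C4b (ENSMUSG00000073418.4, chromosome 17, 34728380 to 34743882, minus strand) encodes C4, the substrate of C1s. It was at 207 and 204 CPM in shDRG2 with IFN-γ, against 0.218 and 0.0775 CPM in shDRG2 cells. It was at 186 and 213 CPM in pLKO with IFN-γ, against 0.183 and 0.188 CPM in pLKO cells. Every IFN-γ library held at least 5009 counts of C4b, and no library without IFN-γ more than 6.54. The log2 fold change was 10.34 in shDRG2 (95% interval 9.92 to 10.75, edgeR adjusted p = 6.10e-11) and 10.04 in pLKO cells (9.64 to 10.44, edgeR adjusted p = 5.62e-11). C4b passed the filter only through its IFN-γ libraries and so had to differ, and its p-values and ranks add no support. The shDRG2 value rests on few counts without IFN-γ. It was 11.31 without shDRG2 replicate 1 and 9.86 without shDRG2 replicate 2, both outside that interval and both called. The base of this fold was 9 counts over both shDRG2 libraries, with an exact Poisson interval of 4.12 to 17.1, and 12 counts over both pLKO libraries, with an interval of 6.20 to 20.96. Such intervals cover counting error only. C4b ranked 51 among 13500 fold changes in shDRG2 and 40 in pLKO cells, and its level ranked 994 in shDRG2 with IFN-γ and 1037 in pLKO with IFN-γ. C4a, a near copy, holds 48.8% of the 31-base words of C4b. It had 27 counts over the shDRG2 IFN-γ libraries and 24 over the pLKO IFN-γ libraries, beside 13 in shDRG2 and 26 in pLKO cells. Without IFN-γ, C4a and C4b counts were thus of like size and their split is uncertain. With IFN-γ, C4b held nearly all counts of the pair.

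C2 (ENSMUSG00000024371.14, chromosome 17, 34862604 to 34898265, minus strand) encodes the other substrate of C1s. It was at 135 and 118 CPM in shDRG2 with IFN-γ, against 28.8 and 24.65 CPM in shDRG2 cells. It was at 116 and 122 CPM in pLKO with IFN-γ, against 19.5 and 23.5 CPM in pLKO cells. Its rise was 4.72-fold in shDRG2 (2.24, SE 0.115, edgeR adjusted p = 1.87e-07) and 5.52-fold in pLKO cells (2.47, SE 0.117, edgeR adjusted p = 1.05e-07). C2 thus differed from C4b in that it was already well above 0 without IFN-γ. Serping1 (ENSMUSG00000023224.12, chromosome 2, 84765387 to 84775444, minus strand) encodes C1 inhibitor, a serpin. It was at 6.86 and 4.62 CPM in shDRG2 with IFN-γ and at 5.12 and 6.49 CPM in pLKO with IFN-γ, and had 0 counts in the 4 libraries without IFN-γ. With a floor of 3 counts for both libraries without IFN-γ together, its level was at least 109-fold higher in shDRG2 cells (edgeR adjusted p = 1.06e-05) and at least 127-fold higher in pLKO cells (edgeR adjusted p = 1.01e-05). These bounds hold for that floor only and take the counts with IFN-γ as exact. The exact Poisson interval for 0 counts reaches 3.69. Serping1 passed the filter only through its IFN-γ libraries and so had to differ, and its p-values add no support.

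Masp1 (ENSMUSG00000022887.9, chromosome 16, 23449417 to 23520815, minus strand) encodes a protease of the lectin pathway, and by alternative splicing also MASP-3 and MAp44, which counts per gene do not separate. It was at 1.23 and 1.07 CPM in shDRG2 with IFN-γ, against 6.81 and 5.70 CPM in shDRG2 cells. It was at 5.71 and 3.72 CPM in pLKO with IFN-γ, against 12.9 and 10.01 CPM in pLKO cells. It was the one tested gene of the 10 that IFN-γ lowered, 5.46-fold in shDRG2 (-2.45, SE 0.259, edgeR adjusted p = 5.03e-05) and 2.45-fold in pLKO cells (-1.29, SE 0.217, edgeR adjusted p = 0.00140). By their means the groups ran, low to high, in the order shDRG2 with IFN-γ, pLKO with IFN-γ, shDRG2 and pLKO, of which pLKO with IFN-γ and shDRG2 overlapped narrowly (5.71 CPM for the highest and 5.70 CPM for the lowest library).

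C3 (ENSMUSG00000024164.15, chromosome 17, 57203970 to 57228136, minus strand) encodes the component on which all pathways converge. It had 11 and 7 counts in shDRG2 with IFN-γ, 5 and 6 counts in pLKO with IFN-γ, and 0 counts in every library without IFN-γ. It stayed under the filter. With the same floor it was at least 5.22-fold higher in shDRG2 and at least 3.97-fold higher in pLKO cells. These bounds take the counts with IFN-γ as exact. Summed, these were 18 in shDRG2 (exact Poisson interval 10.67 to 28.45) and 11 in pLKO cells (5.49 to 19.68). Without a filter C3 was called in both lines (edgeR adjusted p = 0.00292 and 0.0133). That fit called 4670 genes over all in shDRG2 and 4287 in pLKO cells, against 4233 and 3796 with the filter. Its level with IFN-γ was 0.279 ± 0.124 CPM in shDRG2 and 0.184 ± 0.00188 CPM in pLKO cells (SD, n = 2). Cfb (ENSMUSG00000090231.10, chromosome 17, 34856374 to 34862518, minus strand) encodes factor B. It was at 4.96 and 5.69 CPM in shDRG2 with IFN-γ, against 0.560 and 0.698 CPM in shDRG2 cells. It was at 4.15 and 6.09 CPM in pLKO with IFN-γ, against 0.794 and 1.06 CPM in pLKO cells. The rise was 8.51-fold in shDRG2 (3.09, SE 0.288, edgeR adjusted p = 1.93e-05) and 5.52-fold in pLKO cells (2.46, SE 0.269, edgeR adjusted p = 7.34e-05). The annotated read-through gene Gm20547 covers 79.5% of the exon bases of Cfb and 42.8% of those of C2 on the same strand, and was given at most 9.116 counts in a library.

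Of the membrane regulators, Cd55 (ENSMUSG00000026399.12, chromosome 1, 130439027 to 130462744, minus strand) had 0 counts in all 8 libraries, which allows a level of up to 0.0821 to 0.116 CPM depending on the library. Its near copy Cd55b was not among the named genes of the count table. Cd59a (ENSMUSG00000032679.12, chromosome 2, 104095801 to 104115354, plus strand) had 8.63 and 9.60 CPM in shDRG2 with IFN-γ, against 10.95 and 11.6 CPM in shDRG2 cells. The gene had 9.20 and 11.15 CPM in pLKO with IFN-γ, against 9.81 and 12.5 CPM in pLKO cells. The pLKO groups overlapped and the shDRG2 groups did not. The log2 fold change was -0.30 in shDRG2 (95% interval -0.64 to 0.03, edgeR adjusted p = 0.162) and -0.13 in pLKO cells (-0.46 to 0.21, edgeR adjusted p = 0.584). Cd59b, the neighbouring copy, had at most 3 counts in a library.

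**Figure D2:**
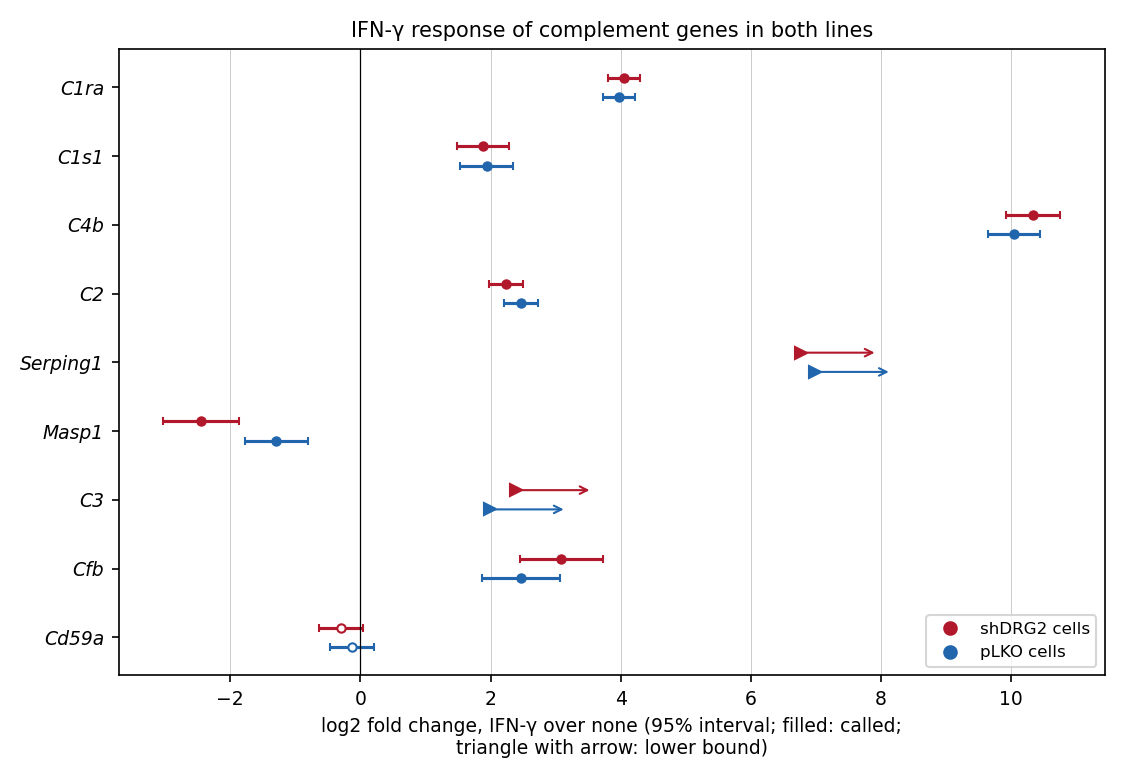
Log2 fold change of complement genes, IFN-γ over none, in shDRG2 (red) and pLKO cells (blue), with 95% intervals, and filled points for called genes. Triangles with arrows are lower bounds for genes with 0 counts without IFN-γ. C4b lies at 10.34 and 10.04, Masp1 at -2.45 and -1.29, and the intervals of Cd59a include 0.

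Per length of merged exons, C1ra was the most abundant of the 10 with IFN-γ, at 52.9 ± 2.18 CPM per kb in shDRG2 and 44.6 ± 4.80 in pLKO cells (SD, n = 2). C4b and C2 followed, at 36.1 ± 0.357 and 32.7 ± 2.99 CPM per kb in shDRG2, and at 35.0 ± 3.38 and 30.7 ± 1.03 in pLKO cells. The libraries of C1ra, C4b and C2 did not overlap within either line. This order depends on the length used. The merged exons of C2 hold 3872 bases and its longest transcript 2641, while C1ra has 2981 by both. By longest transcript, C2 with IFN-γ would stand above C4b in both lines and about level with C1ra in pLKO cells. It would also stand higher against Cd59a without IFN-γ. Cd59a (5.03 ± 0.380 in shDRG2 and 5.62 ± 0.762 in pLKO) and C1s1 (4.34 ± 0.578 and 3.89 ± 0.624) came next, with ranges that did not overlap but nearly met in shDRG2. Serping1 (2.47 ± 0.681 and 2.50 ± 0.417) and Cfb (1.89 ± 0.182 and 1.81 ± 0.485) were lower and overlapped in shDRG2, and Masp1, C3 and Cd55 lowest. Without IFN-γ the order began with C2 (6.91 ± 0.764 CPM per kb in shDRG2 and 5.55 ± 0.742 in pLKO) and Cd59a (6.22 ± 0.250 and 6.15 ± 1.04), which did not differ beyond their spread, followed by C1ra (3.18 ± 0.302 and 2.84 ± 0.187). The 10 genes together made up 538 and 512 CPM in shDRG2 with IFN-γ and 460 and 519 CPM in pLKO with IFN-γ. They made up 61.2 and 55.2 CPM in shDRG2 and 54.0 and 59.7 CPM in pLKO cells. C4b was 38.5% to 41.1% of this sum with IFN-γ, and 0.140% to 0.356% without.

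Between the lines, 1 of the 8 tested genes was called with IFN-γ and none without. The median was 0.05 over the 8 with IFN-γ and 0.02 over the 7 with a fold without it, beside 0.00 and 0.01 over all genes tested. With IFN-γ, Masp1 was at 1.23 and 1.07 CPM in shDRG2, against 5.71 and 3.72 CPM in pLKO cells, a 4.08-fold lower level (-2.03, SE 0.264, edgeR adjusted p = 0.00488), where 1.67% of all tested genes were called, 0.504% higher and 1.17% lower. The call ended without shDRG2 IFN-γ replicate 1 (-2.13, edgeR adjusted p = 0.0582) and without replicate 2 of that group (-1.92, edgeR adjusted p = 0.0657), with the value little changed. Masp1 ranked 91 from the lowest of 13500 fold changes in this comparison. Without IFN-γ, Masp1 was at 6.81 and 5.70 CPM in shDRG2, against 12.9 and 10.01 CPM in pLKO cells, so the groups did not overlap (-0.87, 95% interval -1.34 to -0.40, edgeR adjusted p = 0.0877). That value passed the threshold in several alternatives, among them DESeq2 (adjusted p = 0.0289). A fit of the comparison's 4 libraries alone also called it (edgeR adjusted p = 0.0464). So did a fit without a filter (edgeR adjusted p = 8.98e-05), which called 678 genes over all against 162 in the main fit. The value did not pass with RLE or upper-quartile scaling (edgeR adjusted p = 0.0883 and 0.081). With 1 of the comparison's own 4 libraries left out it ran from -1.04 to -0.67 and was not called. By the edgeR test none of the 8 genes was called without IFN-γ, where 1.2% of all tested genes were, 0.467% higher and 0.733% lower. At an unadjusted edgeR p under 0.05 there were 2, Masp1 and C2, beside 1723 of the 13500 genes tested. DESeq2 called 1, Masp1, beside 312 over all genes.

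For the genes that IFN-γ raised, intervals of the difference between the lines were narrow where counts were high. With IFN-γ, C4b was at 0.04 (95% interval -0.16 to 0.25, edgeR adjusted p = 0.929), C2 at 0.09 (-0.15 to 0.33, edgeR adjusted p = 0.845) and C1ra at 0.25 (0.04 to 0.45, edgeR adjusted p = 0.302). The libraries of C1ra did not overlap there, at 162 and 153 CPM in shDRG2, against 123 and 143 CPM in pLKO cells. C1s1 was at 0.16 (-0.21 to 0.52), Cfb at 0.05 (-0.46 to 0.56), Serping1 at -0.02 (-0.60 to 0.56) and Cd59a at -0.16 (-0.50 to 0.18). Without IFN-γ, C2 was at 28.8 and 24.65 CPM in shDRG2, against 19.5 and 23.5 CPM in pLKO cells, with no overlap (0.32, 95% interval 0.06 to 0.58, edgeR adjusted p = 0.279). C1ra was at 0.17 (-0.10 to 0.43), C1s1 at 0.22 (-0.22 to 0.66), Cfb at -0.57 (-1.32 to 0.17), C4b at -0.25 (-1.47 to 0.96) and Cd59a at 0.02 (-0.32 to 0.35). C4b was at -1.22 without shDRG2 replicate 1 and at 0.23 without shDRG2 replicate 2. The libraries of C1s1 and of Cfb did not overlap either, and neither gene was called. With 2 libraries on each side, a lack of overlap between the lines often arises by chance. Its share over all genes was not computed, here or for the other genes. Serping1 was at 0 in both lines and gives no fold.

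**Figure D3:**
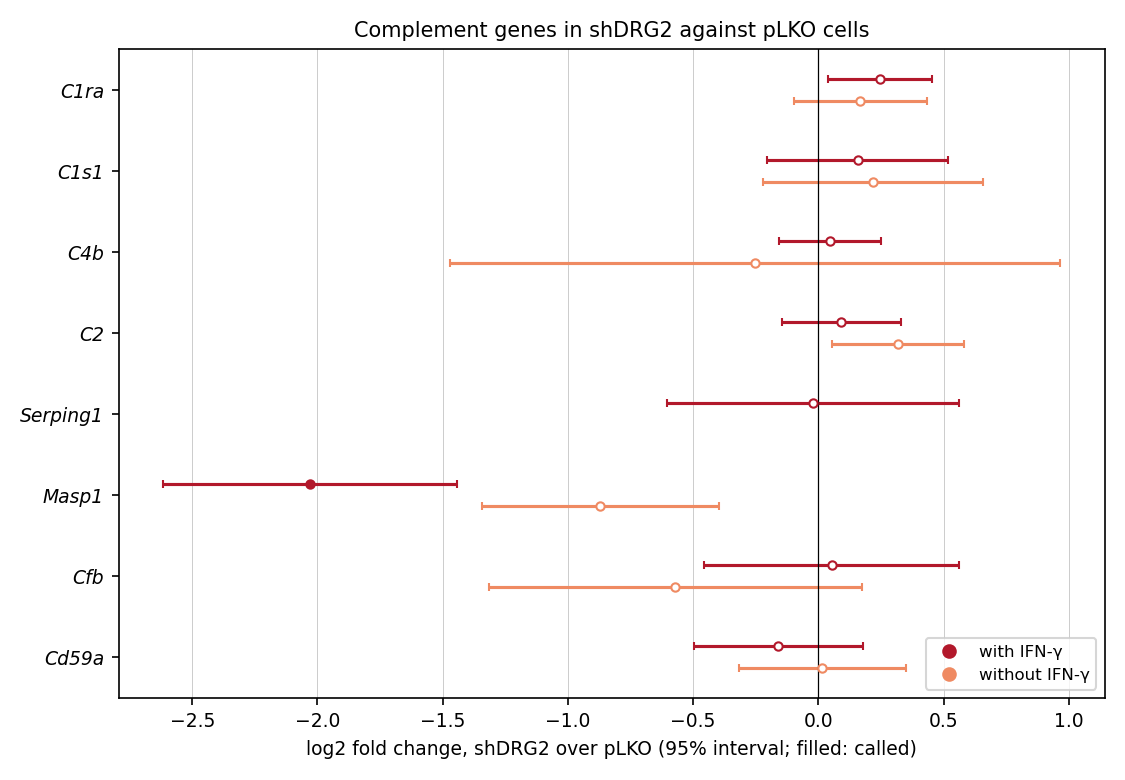
Log2 fold change of complement genes, shDRG2 over pLKO, with IFN-γ (red) and without (orange), with 95% intervals. The filled point, Masp1 with IFN-γ at -2.03, is the one called value, and the interval of Masp1 without IFN-γ runs from -1.34 to -0.40.

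The difference between the IFN-γ responses of both lines (shDRG2 minus pLKO) was not called for any of the 8 genes by edgeR or DESeq2. Of all tested genes edgeR called 0.00741%. At an unadjusted edgeR p under 0.05 stood 321 of the 13500 genes tested, and 1 of the 8. That gene was Masp1, at -1.16 (SE 0.340, 95% interval -1.92 to -0.40, edgeR adjusted p = 1). It was called without a filter (edgeR adjusted p = 0.0179), in a fit that called 58 genes over all against 1 in the main fit. The difference was 0.08 for C1ra (-0.26 to 0.42), -0.06 for C1s1 (-0.63 to 0.51) and -0.23 for C2 (-0.58 to 0.13). It was 0.30 for C4b (-0.94 to 1.53) and 0.62 for Cfb (-0.28 to 1.53), both limited by low counts without IFN-γ, and -0.17 for Cd59a (-0.65 to 0.30). The value of C4b was 1.26 without shDRG2 replicate 1 and -0.18 without shDRG2 replicate 2, so its direction rests on single libraries. These intervals bound the differences and do not show that the responses were equal.

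C4b, Cfb and C2 lie in the class III region of the major histocompatibility complex, so the protein-coding genes within 50 kb of them were examined. Of 10 such neighbours 8 were tested, and in each line 2 were higher and 1 lower with IFN-γ, where 31.4% of all tested genes were called in shDRG2 and 28.1% in pLKO cells. A count of 3 of 8 is near that background. The 2 higher were Tnxb, a matrix protein gene beside C4b that averaged 0.518 CPM (2.17 in shDRG2, edgeR adjusted p = 0.00405, and 1.27 in pLKO, edgeR adjusted p = 0.0351), and Stk19 (0.34 and 0.41, edgeR adjusted p = 0.0246 and 0.00983). Nelfe, a subunit of a factor that pauses RNA polymerase and whose end lies next to that of Cfb, was lower (-0.49 and -0.37, edgeR adjusted p = 0.00344 and 0.0159). The other tested neighbours were not called. Dxo was at -0.07 and -0.01, Skiv2l at 0.23 and 0.26, Zbtb12 at -0.25 and -0.26, Ehmt2 at 0.02 and 0.02, and Neu1 at -0.17 and -0.00, in shDRG2 and pLKO cells in each case. The median of the 8 was -0.02 in shDRG2 and 0.01 in pLKO cells.

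**Figure D4:**
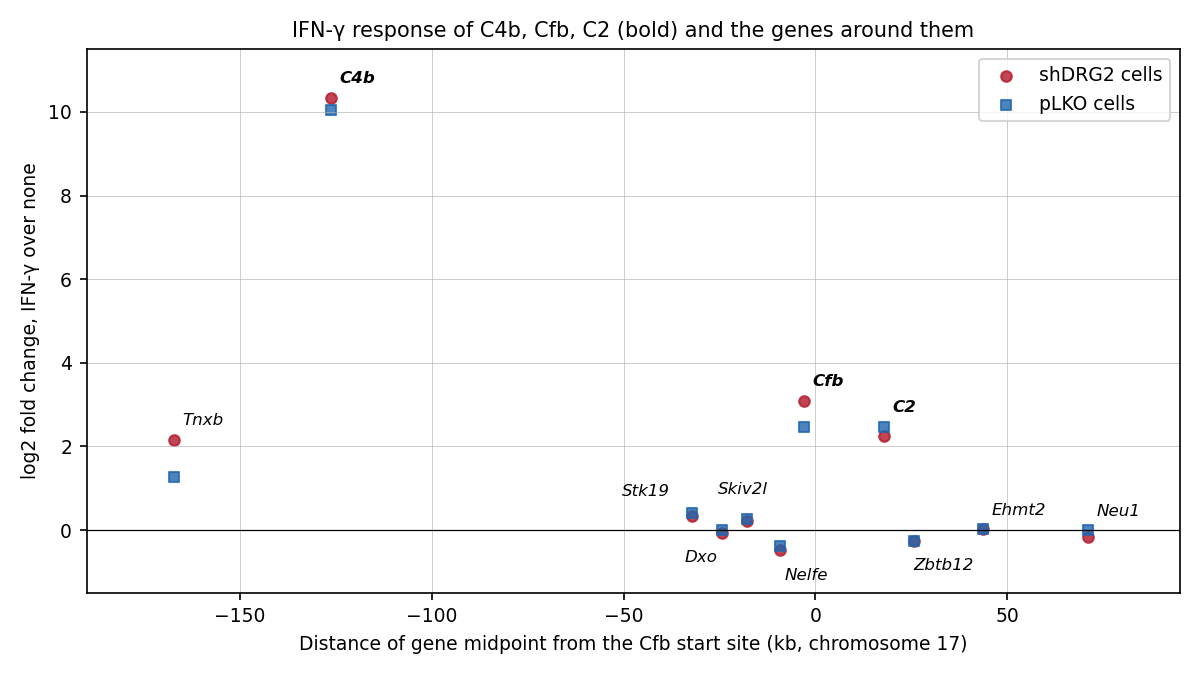
Log2 fold change with IFN-γ of C4b, Cfb and C2 (bold) and the tested protein-coding genes around them, against the distance in kb of each gene's midpoint from the Cfb start site, in shDRG2 (red circles) and pLKO cells (blue squares). C4b is at 10.34 and 10.04 and C2 and Cfb are between 2.24 and 3.09, while the neighbours lie between -0.49 and 2.17.

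Of 50 other genes of the complement system, 24 had no count in any library, 16 stayed under the filter and 9 were tested. The remaining 1, Cd55b, was not among the named genes of the count table. With IFN-γ, 1 of the 9 was higher in shDRG2 and 2 in pLKO cells, and none was lower, where 16.2% of all tested genes were higher in shDRG2 and 15.4% in pLKO cells, so these counts are near the background. The median of the 9 was 0.38 in shDRG2 and 0.29 in pLKO cells. C1rl, which encodes a C1r-like protease, was at 77.2 and 67.01 CPM in shDRG2 with IFN-γ, against 22.3 and 20.9 CPM in shDRG2 cells (1.74, SE 0.107, edgeR adjusted p = 7.75e-07). It was at 50.2 and 55.1 CPM in pLKO with IFN-γ, against 13.8 and 16.2 CPM in pLKO cells (1.81, SE 0.110, edgeR adjusted p = 7.41e-07). Cd46, a membrane cofactor protein, was called in pLKO (0.82, edgeR adjusted p = 0.0249) and not in shDRG2 cells (0.53, edgeR adjusted p = 0.116), and the difference between these responses was -0.30 (edgeR adjusted p = 1). Between the lines, none of the 9 was called by edgeR with or without IFN-γ, and C1rl came nearest, at 0.45 with IFN-γ (edgeR adjusted p = 0.0604) and 0.52 without (edgeR adjusted p = 0.0556). The 95% intervals of 2 of the 9, C1rl and Clu, excluded 0 in both comparisons. Clu had an edgeR adjusted p of 0.235 with IFN-γ and 0.331 without. Over the 13500 genes tested, 1616 with IFN-γ and 1723 without had an unadjusted edgeR p under 0.05. The most abundant of the list by CPM was C1qbp, a mitochondrial protein that also binds C1q, at a mean of 157 CPM over the 8 libraries. C1rl at 40.3, Cr1l at 29.6, Clu at 7.02 and Cd46 at 3.69 CPM followed. Cr1l, the rodent membrane regulator also called Crry, was at 0.13 with IFN-γ in shDRG2 (95% interval -0.06 to 0.31) and at 0.16 in pLKO cells (-0.02 to 0.34).

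The genes at or near 0 included those that begin and end the cascade. C1qa, C1qb and C1qc, the chains of C1q, had 0 counts in all 8 libraries. So did the lectin genes Mbl1, Mbl2 and Fcnb, the factor D gene Cfd, and the membrane attack genes C6, C8a, C8b and C9. Hc, which encodes C5, and C7 had at most 1 count in a library, and so did the regulator gene Cfi. The receptor genes C3ar1 and C5ar2 were at 0 and C5ar1 had at most 1 count. C8g was an exception among the membrane attack genes, with 20 to 69 counts in a library, and was tested without being called.

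The genes whose profiles over the 8 libraries lay nearest to those of the tested members were found by Euclidean distance between log2 CPM values centred on each gene's mean. Nearest to C1ra were Stat2 (distance 0.232), a transcription factor of interferon signalling, H2-T22 (0.233) and Erap1 (0.353), an aminopeptidase that trims peptides for MHC class I. Nearest to C2 were Stat3 (0.283), Parp3 (0.303) and Snx10 (0.369). C4b lay nearest to Igtp (0.630), Psmb9 (0.752) and Ifi47 (0.802), of which Psmb9 encodes an immunoproteasome subunit and Igtp and Ifi47 encode immunity-related GTPases. For C1s1 they were Hpse (0.280), Gnb4 (0.398) and Rbm43 (0.428). Serping1 lay nearest to Parp14 (0.546), Phf11b (0.586) and Nlrc5 (0.682), and Cfb to RP23-422D12.3 (0.458), Fam46a (0.462) and Oas1b (0.660). Serping1 had 0 counts without IFN-γ, so its log2 values there were set by a small count added before taking logs. Its distances depend on that added count, and so do those of C4b, which had few counts there. Masp1 had more distant neighbours, Lamb1 (0.782), Afap1l2 (0.845) and Kctd12 (1.01). Cd59a lay nearest to Dnajb14 (0.131), Cdc14b (0.135) and Pkd2 (0.148), whose levels, like its own, moved little.

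Marker sums differed between libraries with and without IFN-γ. The melanocyte markers summed to 9621 to 11060 CPM with IFN-γ and 12910 to 14940 CPM without. The 7 myeloid markers, of which 3 never had more than 3 counts, summed to 1.45 to 1.93 CPM in shDRG2 with IFN-γ and 1.95 to 2.00 in pLKO with IFN-γ, against 0.814 to 0.995 in shDRG2 and 0.917 to 1.31 in pLKO cells. The sum of the 5 fibroblast markers, of which none was at 0, was lower with IFN-γ in both lines. It was 4.16 to 5.74 CPM in shDRG2 with IFN-γ, against 18.0 to 19.5 in shDRG2 cells. In pLKO with IFN-γ it was 5.64 to 5.70, against 15.8 to 18.9 in pLKO cells. The 5 endothelial markers, with Cdh5 and Kdr at 0, summed to at most 0.700 CPM in a library with IFN-γ, and to 5.04 to 5.97 in shDRG2 and 1.497 to 2.158 in pLKO cells. The 5 hepatocyte markers summed to at most 0.233 CPM and the 5 lymphocyte markers to at most 0.0306 CPM in any library. The part of the fibroblast and endothelial genes in the fall of Masp1 was not tested.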

How the data were processed

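RNA sequencing was done on 8 libraries of B16F10 cells, in 4 groups of 2 set from the sample labels. STAR, Salmon 1.5.2 and the build mm10 are named, without roles, per the submitters' processing notes. Annotation and strandedness: not given in the sources used here. The authors deposited estimated counts per gene, unscaled between libraries; 86.4% of nonzero values were whole to within 0.0015. Of 45583 entries, 27 with names turned into dates (0.204% to 0.212% of counts) were left out. Counts were rounded and analysed with edgeR 4.0.16 in R 4.3.3: filterByExpr, TMM factors of 0.973 to 1.04, a quasi-likelihood fit with 1 coefficient per group over all 8 libraries (two-sided F test), and Benjamini-Hochberg adjustment over 13500 genes at 0.05. The SE is the log2 fold change over the square root of F, and 95% intervals use the fit's total degrees of freedom. Replicates differed by 12.8 to 17.3 times the counting variance per gene, so none was a repeat deposit. Alternatives were RLE and upper-quartile scaling, no filter, DESeq2 1.42.0, the replicate number as a block, the comparison's own 4 libraries, and each library left out. The procedure was tested on simulated counts. Positions and exon lengths came from GENCODE M21 (GRCm38), which matched 91.8% of names and all 10 genes. The members, gene lists, neighbour window and motifs were chosen with earlier results of these data known. All 10 members are named; other complement genes are named where called or among the 5 most abundant, and those at or near 0, C8g and Tnxb's level were singled out after their values were seen.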

Additional observations from a re-analysis of the deposited data

How the results depend on the processing

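Every one of the 14 calls of members after IFN-γ (7 in each line) held its direction and its call in all 14 alternatives, 196 values of 196. These include the calls of C4b and Serping1, which passed the filter only through their IFN-γ libraries and so had to differ. Of 525 member values recomputed in all, 499 kept their direction and their side of the threshold. In 16, all from leaving out 1 library, a value that was not called changed sign and stayed uncalled, and the remaining 10 concern the calls of Masp1 and Cd59a. For shDRG2 against pLKO without IFN-γ the count of called members was 0, and it was 1, Masp1, without a filter, with DESeq2, with the comparison's 4 libraries alone and with the replicate block; leaving out 1 library gave 0 to 1, with the call made without either replicate of pLKO with IFN-γ (edgeR adjusted p = 0.0409 without replicate 1 and 0.0428 without replicate 2). With IFN-γ the count was 1, and leaving out 1 library gave 0 to 1. For the difference between responses it was 0, and 1 without a filter, Masp1. The fit without a filter called more genes over all. For shDRG2 against pLKO these were 678 against 162 without IFN-γ and 653 against 226 with it. For the difference between responses they were 58 against 1. Leaving out 1 library gave these ranges for the log2 values that changed sign. For shDRG2 against pLKO with IFN-γ they were -0.043 to 0.15 for C4b, -0.19 to 0.36 for Cfb, -0.33 to 0.24 for Serping1 and -0.0040 to 0.18 for C2. Without IFN-γ they were -1.22 to 0.23 for C4b and -0.15 to 0.20 for Cd59a. For the difference between responses they were -0.012 to 0.19 for C1ra, -0.27 to 0.12 for C1s1 and -0.18 to 1.26 for C4b, and after IFN-γ in pLKO cells -0.28 to 0.056 for Cd59a. The causes of these moves were not tested. Where a library was left out, the lone library of its group was assumed to vary like the other groups.

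The replicate number as a block called Masp1 without IFN-γ (-0.87, edgeR adjusted p = 0.00437) and Cd59a after IFN-γ in shDRG2 cells (-0.31, edgeR adjusted p = 0.0384), and changed no other member's call. Over all genes it gave 673 calls against 162 for shDRG2 against pLKO without IFN-γ, and 675 against 226 with it. Same-numbered libraries deviated together across 13500 genes, with correlations between groups of 0.107 to 0.274, but each group has 2 numbers and the labels do not say that a number marks a shared day or batch. Depth limits C3, Cd55, Serping1 and C4b without IFN-γ, where a library held 0 to 6.54 counts.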

Other observations

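C1r and C1s work as a pair, and the per-length ratio of C1ra to C1s1 was chosen for a look after the values were seen. It was 13.85 and 10.8 in shDRG2 with IFN-γ and 11.95 and 11.1 in pLKO with IFN-γ, against 2.87 and 2.52 in shDRG2 and 3.08 and 2.58 in pLKO cells, so all 4 IFN-γ libraries lay above all 4 others. The ratio of C2 to its neighbour Cfb was 19.8 and 15.2 in shDRG2 with IFN-γ and 20.4 and 14.6 in pLKO with IFN-γ, against 37.6 and 25.8 in shDRG2 and 17.9 and 16.1 in pLKO cells. The ratio of C4b to C2 was 1.05 to 1.19 in the 4 IFN-γ libraries and at most 0.00640 in the others. Both ratios with C2 depend on the exon length taken for it. The read-through gene Gm20547, which spans Cfb and C2, had 9.116 and 8.08 counts in shDRG2 with IFN-γ and 2.996 and 0 in pLKO with IFN-γ, against 0 and 2.29 in shDRG2 and 0 and 0 in pLKO cells, too few to test.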
